A study of Mus musculus with 55 samples.

Results

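The 11473 regions described here are stretches of chromatin that were accessible in CdxKO epiblast stem cells (EpiSCs) after 48h with Chiron, were absent from the list of accessible regions at 0h, and held no mapped site of Cdx2 or of T (Brachyury). They are called the opened regions below. They were chosen from the deposited lists by overlap alone. Of the 46532 regions in the 48h list, 11863 shared no base with a region of the 0h list (25.5%). Of these, 390 shared at least 1 bp with a region of the 4 Cdx2 and T lists and were set aside, which left the 11473 opened regions. They made up 24.7% of the 48h list and 11.2% of the bases it covers. Absence from the 0h list and absence of Cdx2 and T therefore define the set and are not results.

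The series holds 55 mouse samples around Cdx and T in the axial progenitors, of which 21 region lists were used here. Accessibility was measured by ATAC-seq, in which a transposase inserts adapters into open DNA. The ATAC-seq cells were CdxKO EpiSCs, pluripotent cells grown from E6.0 pre-streak explants with Fgf-basic and Activin A. The 48h cells had 3 µM Chiron, an inhibitor of GSK3 that activates Wnt signalling, after IWP2 was withdrawn, and the 0h cells were kept in 2 µM of the Wnt inhibitor IWP2. There was 1 library per time, so the change between times has no replicate check. With no untreated 48h culture, the effects of Chiron, of IWP2 withdrawal and of time in culture cannot be told apart. The labels do not spell out which alleles CdxKO stands for, and the culture text of the 0h library speaks of Wnt3 null cells at the genotyping step.

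Binding and acetylation came from other cells. The ChIP-seq EpiSCs were wild type and had 24h of 3 µM Chiron with 120 ng/ml Fgf8. They gave 2 lists of H3K27ac, 1 list of CBP-P300, 2 of Cdx2 and 2 of T. Wild-type E9.5 embryos gave 2 H3K27ac lists from the tailbud and 2 from anterior tissue. Genotype, time and Fgf8 thus differed together between the accessibility and the EpiSC ChIP-seq lists, and the effects of these cannot be told apart. The labels state that the antibody batch of E9.5 replicate 1 also binds H3K9ac and that the study did not use those data. Replicate 2 is therefore the main E9.5 value here, and replicate 1 stands beside it. The 8 lists called on input DNA, which had no antibody, held 429 to 742 regions each, and 42 opened regions (0.366%) met any of them, against 0.479% of all 48h regions.

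Accessible regions are mostly promoters and enhancers, where nucleosomes have been moved aside and transcription factors bind. CBP and P300 are acetyltransferases recruited by such factors, and they place acetyl groups on lysine 27 of histone H3 (H3K27ac), the mark of active enhancers and promoters. Wnt signalling acts through β-catenin and the Tcf/Lef factors. In the posterior embryo it induces T and the Cdx genes, and these maintain the progenitors that extend the trunk and tail.

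The opened regions were narrow. Their median width was 262 bp, with a 25th percentile of 186 bp, a 75th percentile of 376 bp and a range from 136 to 2262 bp, and 1.14% of them were over 1000 bp. The 390 opened regions with a Cdx2 or T site had a median of 382 bp, the 9697 regions accessible at 0h and absent at 48h without such a site (the closed regions) had 269 bp, and the 34669 regions of the 48h list accessible at both times had 661 bp. Of the last group 31.2% were over 1000 bp. Widths come from the lists that chose the sets, so they are a description only. The lists give positions without a score or a read count, so the depth behind each region is unknown.

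Few opened regions carried the marks of active enhancers in wild-type EpiSCs at 24h. H3K27ac in both replicates was found at 765 opened regions (6.67%, 95% Wilson interval 6.23% to 7.14%), where the share over all 48h regions was 34.7%. Replicate 1 alone met 8.9% of the opened and 36.5% of all 48h regions, and replicate 2 alone met 13.8% of the opened and 44.8% of all 48h regions. CBP-P300 was found at 314 (2.74%, interval 2.45% to 3.05%), where the share over all 48h regions was 18.5%. Most of each gap was absent among regions of 186 to 376 bp, the opened regions' 25th to 75th percentiles of width. In that range lay 13072 of all 48h regions, and 5758 of these were opened regions, so the compared sets share many members. CBP-P300 was found there at 1.98% of the opened and 2% of all 48h regions. There EpiSC H3K27ac met 7.61% of the opened and 8.97% of all 48h regions in replicate 1, and 12% of the opened and 15.7% of all 48h regions in replicate 2. These intervals, and all those on shares below, cover counting error only and treat regions as independent.

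A larger share of the opened regions was in the E9.5 H3K27ac lists of replicate 2 than in those of EpiSCs, though a smaller share than of all 48h regions. The tailbud list of replicate 2 met 4463 of them (38.9%, interval 38% to 39.8%), against 61.2% of all 48h regions. The anterior list of replicate 2 met 4750 (41.4%, interval 40.5% to 42.3%), against 61.9% of all 48h regions. With replicate 1, the tailbud list met 18.8% of the opened regions and 46.3% of all 48h regions, and the anterior list met 14.3% of the opened regions and 41.2% of all 48h regions. The lists differ in length. In replicate 2 the tailbud list covered 83.2 Mb and the anterior list 69.5 Mb, against 27.4 and 32.1 Mb for EpiSC H3K27ac in replicates 1 and 2. The anterior list of replicate 1 covered 27.4 Mb, and its 14.3% was near the 13.8% of EpiSC replicate 2. In the width range of 186 to 376 bp, the tailbud list of replicate 2 met 35.7% of the opened and 36% of all 48h regions, and the anterior list 37% of the opened and 36% of all 48h regions. In replicate 2, 5864 opened regions (51.1%) were in at least 1 of the tissues, against 68.3% of all 48h regions. Those in at least 1 of the tissues but in neither EpiSC H3K27ac list numbered 4327 (37.7%), against 24.2% of all 48h regions. At least 1 EpiSC H3K27ac list met 16.1% of the opened and 46.5% of all 48h regions. The 37.7% is therefore drawn from a larger part of its set and does not show more E9.5 acetylation by itself.

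Of the opened regions, 5285 (46.1%, interval 45.2% to 47%) were in none of the 7 acetylation and CBP-P300 lists, where the share over all 48h regions was 29.1%. Of the regions accessible at both times 23.4% were in no list, but within each of the 4 classes of width below 600 bp their share was the higher. The share in no list was 56.5% of the opened regions against 60.2% of those accessible at both times under 200 bp, and 31.3% of the opened regions against 33.9% of those accessible at both times from 400 bp to under 600 bp. At 600 bp or more it was 15.3% of the opened regions against 4.68% of those accessible at both times. In all 7 lists were 84 opened regions (0.732%), against 15.2% of all 48h regions. Seen from the lists, opened regions lay in 3.91% and 4.77% of the EpiSC H3K27ac regions of replicates 1 and 2 and in 2.5% of the CBP-P300 regions. They lay in 5.79% of the tailbud and 7.59% of the anterior regions of replicate 2. Regions accessible at both times lay in 67.4% and 64.2% of the EpiSC H3K27ac regions of replicates 1 and 2. They lay in 76.3% of the CBP-P300 regions, and in 31.5% of the tailbud and 39% of the anterior regions of replicate 2.

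**Figure D1:**
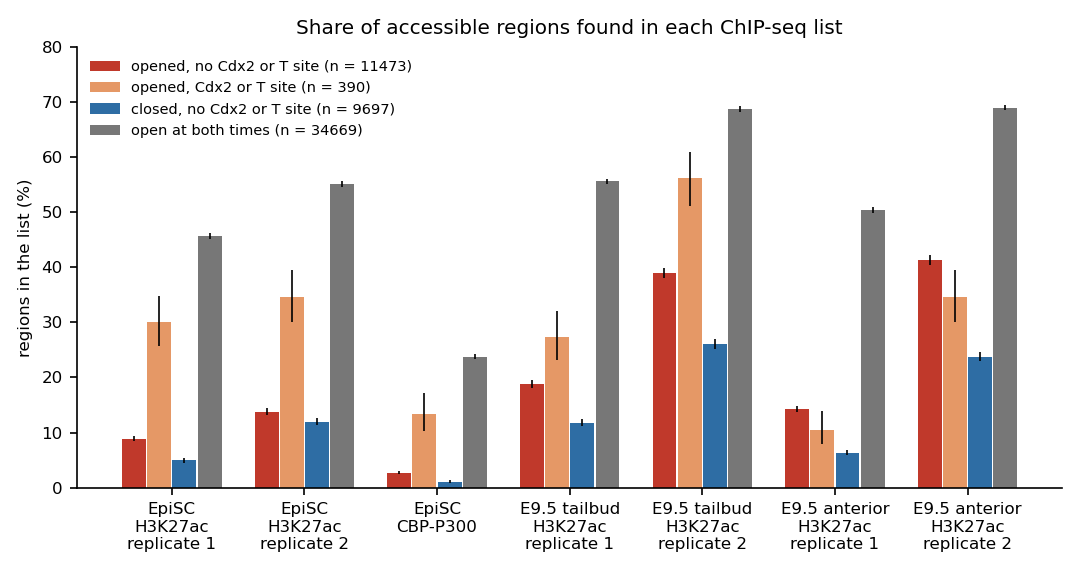
Bars give the share (%) of each set of accessible regions that shares at least 1 bp with a ChIP-seq list, and lines give the 95% Wilson interval for counting error. The opened regions without a Cdx2 or T site stand above the closed regions in all 7 lists and below the regions open at both times in all 7.

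Acetylation and CBP-P300 occurred together over all 48h regions, and also at the opened regions. Among the 765 with EpiSC H3K27ac in both replicates, 206 had CBP-P300 (26.9%, interval 23.9% to 30.2%). Among the 9630 with H3K27ac in neither replicate, 48 had it (0.498%, interval 0.376% to 0.66%). Of the 314 opened regions with CBP-P300, 266 (84.7%) were acetylated in at least 1 EpiSC replicate. Over all 48h regions, 7691 of the 16160 with H3K27ac in both replicates had CBP-P300. Of the 8618 with CBP-P300, 389 had H3K27ac in neither EpiSC replicate. Both measurements come from the same wild-type treatment, and the part of region width in this was not tested.

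Opened regions acetylated in EpiSCs were acetylated in the embryo more often than those not acetylated in EpiSCs. Of the 765, 86.3% were in the tailbud list and 77.3% in the anterior list of replicate 2. Of the 9630 without EpiSC acetylation, 31.6% were in the tailbud list and 36.1% in the anterior list. The opened regions with CBP-P300 were in the tailbud list in 89.8% of cases and in the anterior list in 76.8%. So in replicate 2 the tailbud share was above the anterior share among opened regions marked in EpiSCs. Among the unmarked ones it was below the anterior share. Both are values without a test. These shares were not counted for other sets of regions or with replicate 1, so they cannot be called particular to the opened regions. The part of region width in them was not tested.

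Sorted by EpiSC H3K27ac in both replicates, CBP-P300 and the E9.5 lists of replicate 2, the opened regions fell into 16 classes. The class with none of these marks held 5520 regions (48.1%). Regions with H3K27ac in a single EpiSC replicate count as lacking it here. The next class held 2719 (23.7%) acetylated in both tissues at E9.5, without CBP-P300 and without H3K27ac in both EpiSC replicates. It was followed by 1367 (11.9%) acetylated in anterior tissue alone and 994 (8.66%) in the tailbud alone. All 4 marks were present at 163 regions (1.42%). These classes were not counted for all 48h regions or for other sets, so none can be called particular to the opened regions.

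The closed regions, which lost accessibility over the same 48h, were used as a set of like width. The EpiSC marks were measured after Chiron with Fgf8, and the other marks in E9.5 embryos. No mark was measured in EpiSCs before Chiron, when the closed regions were accessible. The part of this timing in the differences from closed regions, here and by chromosome and width below, was not tested. EpiSC H3K27ac in both replicates was found at 6.67% of the opened and 3.59% of the closed regions, a difference of 3.08 percentage points (95% interval 2.49 to 3.67). CBP-P300 was found at 2.74% of the opened and 1.09% of the closed regions, which is 2.5 times as often. The tailbud list of replicate 2 met 38.9% of the opened and 26% of the closed regions, a difference of 12.9 percentage points (11.6 to 14.1). The anterior list of replicate 2 met 41.4% of the opened and 23.8% of the closed regions, a difference of 17.6 percentage points (16.3 to 18.8). The share found in no list at all was 46.1% of the opened and 62.2% of the closed regions. The opened share was the higher in each of the 7 lists, including E9.5 replicate 1, where the tailbud list met 18.8% of the opened and 11.8% of the closed regions and the anterior list 14.3% of the opened and 6.34% of the closed regions. In EpiSC H3K27ac replicate 2 the list met 13.8% of the opened and 12% of the closed regions, the smallest ratio of the 7 lists at 1.16; in percentage points the smallest gap was that of CBP-P300, at 1.64. Since 1 library stands behind each time, no test over samples was possible.

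This order held on every chromosome for the marks counted in this way. The 19 autosomes and X hold 11447 of the opened regions. There the opened share exceeded the closed share on 20 of 20 chromosomes for EpiSC H3K27ac in both replicates. The same held for CBP-P300 and for each of the 4 E9.5 lists. On X, CBP-P300 was found at 0.515% of the 194 opened and 0% of the closed regions. Each EpiSC H3K27ac replicate alone was not counted by chromosome. The tailbud share of replicate 2 among opened regions ran from 33.6% to 43.8% between chromosomes, and the anterior share from 33% to 46%. Opened regions made up 19.4% of the 48h regions on chromosome X and 28% on chromosome 14, the lowest and highest of the 20. The chromosomes share the same libraries and are not replicates.

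**Figure D2:**
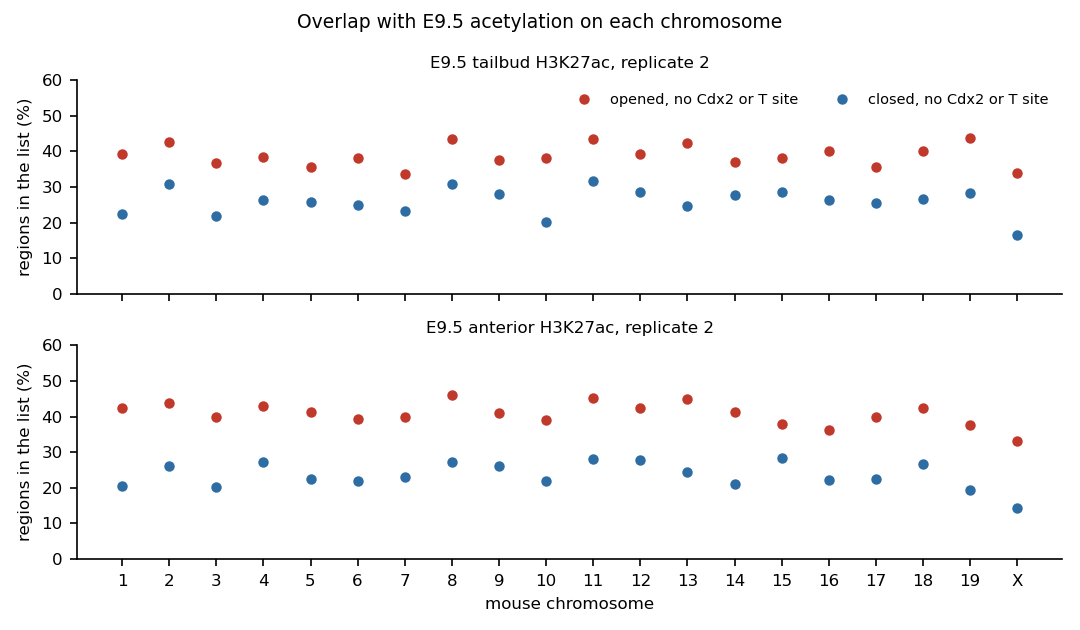
Each point is the share (%) of opened or closed regions on 1 chromosome that meets the E9.5 H3K27ac list of replicate 2, for the tailbud above and anterior tissue below. On all 20 chromosomes the opened point lies above the closed point in both panels.

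Width separated the opened from the closed regions further. Among opened regions under 200 bp, the tailbud list of replicate 2 met 30.1%, and the share was 33%, 43.3%, 50.5%, 66% and 71.2% in the classes from 200, 300, 400, 600 and 1000 bp upward. For the anterior list the shares were 31.1%, 34.3%, 44.9%, 57%, 72.2% and 84.1%. Both shares were thus higher in each wider class.

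The shares of the closed regions differed less with width. The 859 opened regions of 600 bp or more were in the tailbud list in 66.8% of cases (interval 63.6% to 69.9%), against 27% of the 722 closed regions of that width (23.9% to 30.4%). They were in the anterior list in 74% (71% to 76.9%), against 24% of the closed regions (21% to 27.2%). In replicate 1 the tailbud shares were 39.8% of the wide opened and 11.5% of the wide closed regions, and the anterior shares 39.1% of the wide opened and 7.48% of the wide closed regions. At the narrow end, the closed regions under 200 bp were in the tailbud list in 22.8% and in the anterior list in 20.9% of cases.

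The EpiSC marks showed the same divergence. Of the opened regions of 600 bp or more, 16.4% had H3K27ac in both replicates and 11.5% had CBP-P300. Of the closed regions of that width, 4.99% had H3K27ac and 1.66% had CBP-P300. The share found in no list at all was 15.3% of the wide opened and 57.2% of the wide closed regions. The lists hold no reads or scores, and the part of ATAC-seq signal strength in these differences was not tested.

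**Figure D3:**
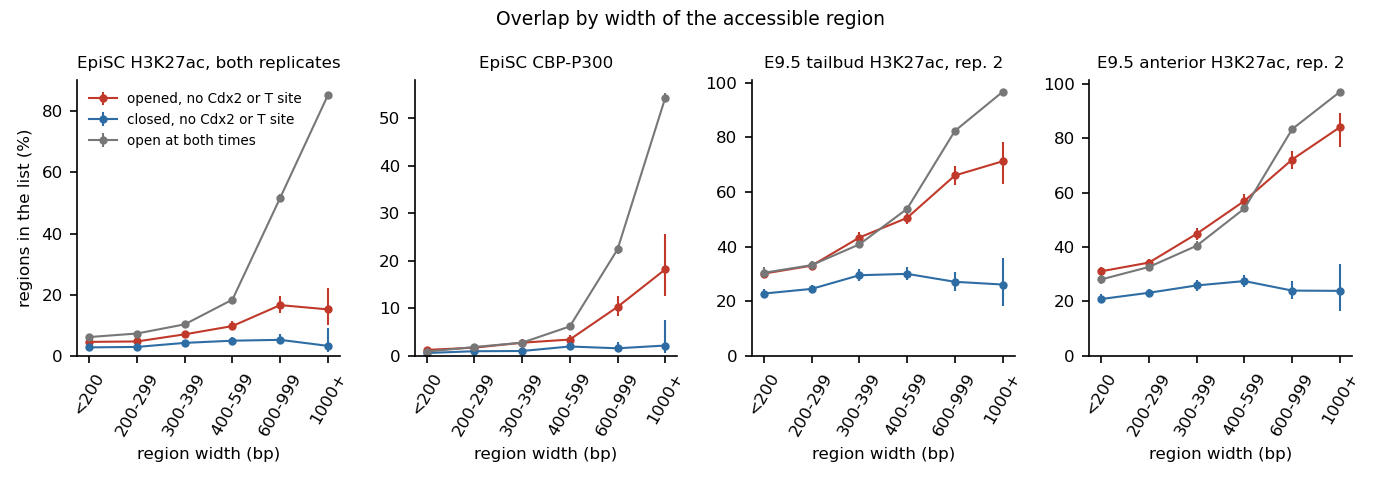
Points give the share (%) of regions in each width class (bp) that meets a list, with 95% Wilson intervals, for opened regions, closed regions and regions open at both times; the vertical scales differ. Shares for E9.5 tissue climb with width in the opened regions, to 71.2% in the tailbud and 84.1% in anterior tissue, while the closed regions stay between 20.9% and 30%.

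Against the regions accessible at both times, a smaller share of the opened regions had each mark. Most of that gap was absent within a narrow range of width, but not among wide regions. EpiSC H3K27ac in both replicates was found at 6.67% of the opened regions and 44.1% of those accessible at both times, a difference of -37.5 percentage points. Within the widths from 186 to 376 bp, with 5758 opened regions and 7173 accessible at both times, the difference was -2.71. For CBP-P300 the difference was -21.1 over all widths and 0.056 within that range, with 1.98% of the opened and 1.92% of the other regions. For the tailbud list of replicate 2 it was -29.8 over all widths and -0.23 within the range, and for the anterior list -27.6 and 1.53. In that range the tailbud list met 35.7% of the opened regions (interval 34.5% to 37%) and 36% of those accessible at both times (34.9% to 37.1%). The anterior list met 37% of the opened regions (35.7% to 38.2%) and 35.4% of those accessible at both times (34.3% to 36.5%). The EpiSC H3K27ac lists still met a smaller share, with 7.61% of the opened regions against 9.84% of those accessible at both times in replicate 1, and 12% of the opened regions against 18.6% of those accessible at both times in replicate 2. Among regions of 600 bp or more the gaps remained. EpiSC H3K27ac in both replicates was found at 16.4% of the opened regions and 71% of those accessible at both times. CBP-P300 was found at 11.5% of the opened and 40.8% of the other regions. The tailbud list of replicate 2 met 66.8% of the opened and 90.6% of the other regions, and the anterior list 74% and 91.3%.

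At the opened regions, as at the closed ones, coverage by the acetylation lists was highest at or near the centre. At the centres of the opened regions, the share covered by the tailbud list of replicate 2 was 33.8%. It was 9.74% on average at the ends of a window reaching 3 kb to each side. For the anterior list the share was 36.2% at the centre and 8.45% at the ends. For EpiSC H3K27ac it was 6.47% against 2.37% in replicate 1 and 10.7% against 2.8% in replicate 2. The replicate 1 share was flat near the centre, with 6.29% at 300 bp to the left and 6.41% at 300 bp to the right. The tailbud list of replicate 2 covered 23.1% of the centres of closed regions, and 6.16% and 5.95% at the left and right ends.

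CBP-P300 had another shape. Its regions covered 1% of the centres of opened regions, 1.71% at 300 bp to the left, 1.66% at 400 bp to the right and 0.597% at the ends. The closed regions had a like dip at lower values, with 0.474% at the centre, 0.619% at 300 bp to the left and 0.712% at 300 bp to the right. At the regions accessible at both times the list covered 11.2% of the centres and 9.65% and 8.08% at 300 bp to the left and 400 bp to the right. The CBP-P300 list thus covered the flanks more often than the centre in the opened and in the closed set. Only 0.95% of the opened regions were covered over at least 50% of their length, against 2.74% that shared 1 bp.

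**Figure D4:**
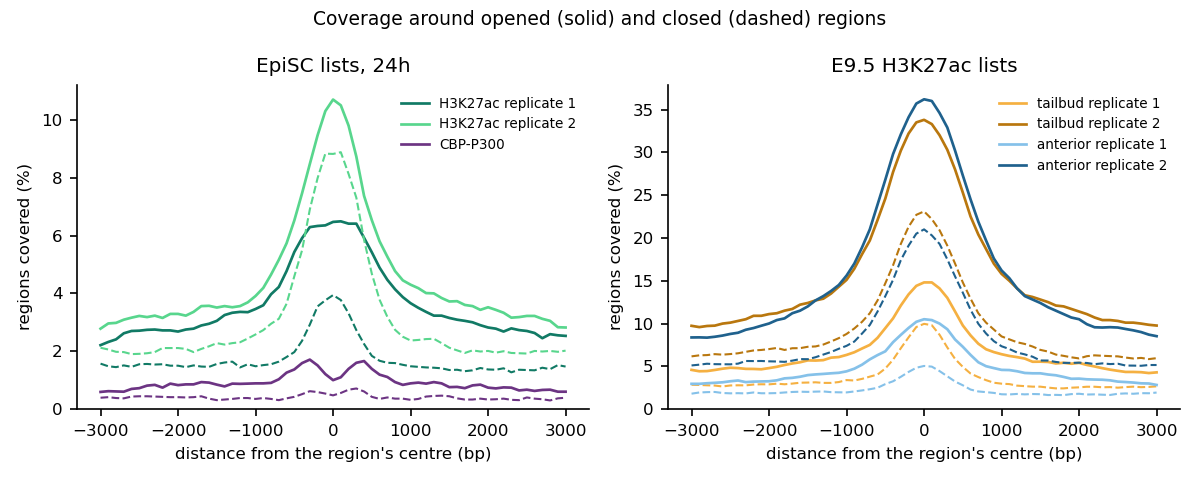
Lines give the share (%) of regions whose base at a given distance (bp) from the centre lies within a region of the list, solid for opened and dashed for closed regions. The E9.5 lists peak at the centre of the opened regions, at 36.2% for anterior tissue and 33.8% for the tailbud of replicate 2, whereas CBP-P300 dips there to 1% in the opened and 0.474% in the closed regions.

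Tailbud and anterior tissue were compared to ask whether the opened regions follow the posterior of the embryo, where Wnt signalling and the Cdx genes are active. The tailbud lists met 18.8% and 38.9% of the opened regions in replicates 1 and 2, and the anterior lists met 14.3% and 41.4%. The tissues overlap, and the antibody batches lie further apart than the tissues. The mean was 28.8% ± 14.2 in the tailbud and 27.8% ± 19.2 in anterior tissue (SD, n = 2 lists each), a difference of 0.985 percentage points (exact two-sided permutation test over lists, p = 1). With 2 lists against 2 the exact permutation test cannot go below p = 0.333, and so cannot reach 0.05. Within antibody batches the tailbud minus anterior difference was 4.47 in replicate 1 and -2.5 in replicate 2, so its direction differs between the batches.

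The length of the lists moves with these shares. The tailbud lists held 39284 and 76071 regions, covering 38.4 and 83.2 Mb, and the anterior lists 28599 and 61674, covering 27.4 and 69.5 Mb. In replicate 2 the anterior share of opened regions was the higher although the tailbud list was the longer. It was the higher on 16 of 20 chromosomes, and in replicate 1 the tailbud share was the higher on 20 of 20. Nearly every opened region met by replicate 1 was found again in replicate 2, with 99% in the tailbud and 99.3% in anterior tissue.

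Opened regions acetylated in a single tissue were counted too. In replicate 2, 1114 were in the tailbud and not the anterior list (9.71%, against 6.43% of all 48h regions), and 1401 were in the anterior and not the tailbud list (12.2%, against 7.05% of all 48h regions). In replicate 1 the shares were 9.53% for the tailbud alone, close to the 8.64% of all 48h regions, and 5.06% for anterior tissue alone, against 3.52% of all 48h regions. Those in the tailbud in both replicates and in no anterior list numbered 243 (2.12%, against 1.41% of all 48h regions), and those in anterior tissue in both replicates and in no tailbud list 205 (1.79%, against 0.971% of all 48h regions). These gaps differed with width. Under 200 bp in replicate 2, 9.4% of the opened regions and 8.61% of those accessible at both times were in the tailbud alone. In anterior tissue alone were 10.5% and 6.29%, in that order. From 600 bp to under 1000 bp, the tailbud-alone shares were 8.53% and 4.7%, and the anterior-alone shares 14.7% and 5.82%. Against the closed regions, the share in the tailbud alone was 9.71% of the opened and 9.32% of the closed regions in replicate 2, and 9.53% of the opened and 7.12% of the closed regions in replicate 1, a difference of 2.41 percentage points (1.67 to 3.15). The share in anterior tissue alone was 12.2% of the opened and 7.15% of the closed regions in replicate 2, a difference of 5.06 (4.27 to 5.85), and 5.06% of the opened and 1.7% of the closed regions in replicate 1, a difference of 3.35 (2.88 to 3.83).

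The 390 regions that opened with a Cdx2 or T site divided between the tissues in another way. In replicate 2, 9.71% of the opened regions without a site and 23.8% of those with one were in the tailbud alone. In anterior tissue alone were 12.2% of the regions without a site and 2.31% (9 regions) of those with one. In replicate 1, 9.53% of the regions without a site and 19% of those with one were in the tailbud alone, and 5.06% without and 2.05% with a site in anterior tissue alone. The tailbud minus anterior difference in the share of regions met was 0.985 percentage points without a site and 19.2 with one, where it was 16.9 in replicate 1 and 21.5 in replicate 2 (exact two-sided permutation test over lists, p = 0.667). For the regions with a site, the exact permutation test within batches gave p = 0.5, the smallest it allows.

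Marks in EpiSCs also differed with the site. H3K27ac in both replicates was found at 6.67% of the opened regions without a site and 23.1% of those with one, and CBP-P300 at 2.74% without and 13.3% with a site. Regions with a site were also wider, with medians of 262 bp without and 382 bp with one. Within 186 to 376 bp, CBP-P300 was found at 1.98% without and 6.38% with a site, the tailbud list of replicate 2 met 35.7% without and 45.4% with a site, and the anterior list 37% without and 26.2% with a site. In that range the tailbud list of replicate 1 met 16.2% without and 14.9% with a site, while over all widths it met 18.8% without and 27.4% with a site. Cdx2 and T were mapped in wild-type cells, and the sites are those called at 24h.

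**Figure D5:**
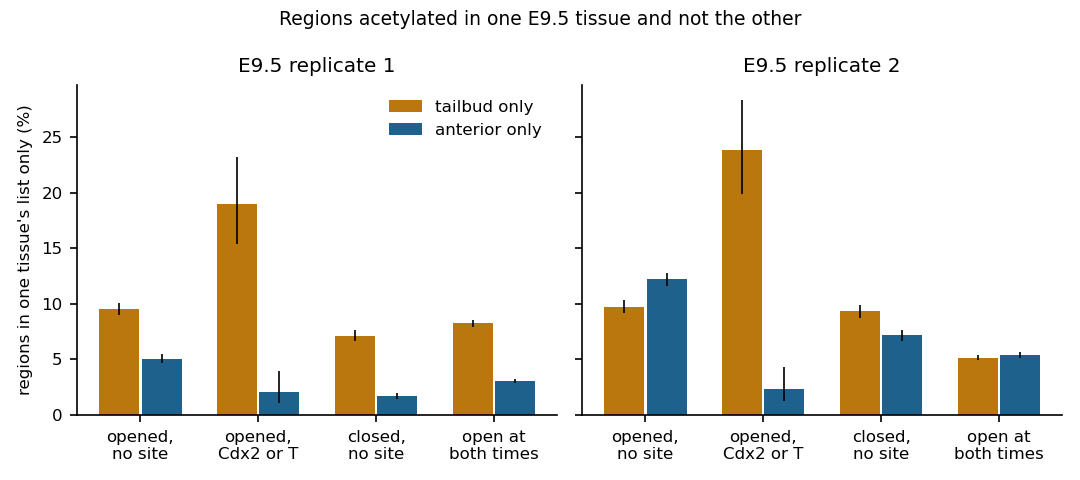
Bars give the share (%) of each set that is in the H3K27ac list of 1 E9.5 tissue and not of the other, for each replicate (antibody batch), with 95% Wilson intervals. In replicate 2 the opened regions without a site show 9.71% tailbud-only and 12.2% anterior-only regions, and those with a Cdx2 or T site show 23.8% and 2.31%.

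Overlap with Cdx2 and T was excluded by the choice of the opened regions, so only their distance beyond that is described. Their median distance to the nearest Cdx2 or T region was 168996 bp, against 204181 bp for the closed regions and 181841 bp for the regions accessible at both times that held no site. Of the opened regions 746 (6.52%) lay within 10 kb. Of the closed regions 4.2% lay within 10 kb, as did 5.04% of the regions accessible at both times without a site. Opened regions nearer to a site were acetylated more often. The tailbud list of replicate 2 met 58.3% of the opened regions under 10 kb from a site, 46.7% from 10 to 50 kb, 39.4% from 50 to 200 kb and 33.4% beyond. The anterior list met 51.2%, 46.2%, 42.3% and 37.9% over the same distances. In this replicate the tailbud share was the higher within 10 kb and the lower beyond 50 kb. Widths were not matched between the distances, and marks were not sorted by distance in other sets of regions. In replicate 1 the tailbud share was the higher at each of the 4 distances. It was 33.4% against 19.3% in anterior tissue under 10 kb, and 15.3% against 12.6% in anterior tissue beyond 200 kb. CBP-P300 was found at 6.7% under 10 kb and 1.6% beyond 200 kb.

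Distance to chromatin that was accessible at 0h had a like gradient. The median opened region lay 10237 bp from the nearest 0h region, and 1265 (11%) lay within 1 kb. Of those under 1 kb away, 55% were in the tailbud list, 55% in the anterior list and 14.2% had EpiSC H3K27ac in both replicates. Beyond 50 kb the shares were 26.8%, 33% and 3.51%. The share in none of the 7 lists was 32.7% under 1 kb and 55.8% beyond 50 kb. Widths were not matched between these distances, and other sets of regions were not sorted in this way.

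At the boundary that defines the set, 59 opened regions (0.514%) lay within 100 bp of a 0h region. The nearest ones were 1 bp from a 0h region, among them chr11:31964304-31964663 and chr5:122554241-122554442 (mm9, as are all positions here). Among the regions just outside, chr1:23966096-23966471 and chr4:46355783-46356256 shared 1 bp with a 0h region and chr17:26986657-26986894 shared 3 bp. In all, 12 regions were left out for an overlap of 10 bp or less.

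Opened regions had neighbours of their kind more often than closed regions. Another opened region lay within 10 kb of 2703 (23.6%, interval 22.8% to 24.3%), and another closed region within 10 kb of 1708 closed regions (17.6%, interval 16.9% to 18.4%). The opened set is also the larger, and the part of its size in this share was not tested. On a grid of 100 kb, 7466 windows held an opened region, 4846 of these held 1, and 103 held 5 or more.

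The fullest window was chr5:140000001-140100000, with 10 opened regions of 141 to 767 bp, 6 regions accessible at both times and 1 closed region. Of its 10 opened regions, 3 were in the tailbud and 5 in the anterior list of replicate 2, 5 were in none of the 7 lists, and none had CBP-P300 or EpiSC H3K27ac in both replicates. The window chr16:34300001-34400000 held 8, of which 1 was in the tailbud list and 4 were in the anterior list. The window chr4:139300001-139400000 also held 8, beside 11 regions accessible at both times, with 1 in the tailbud and 6 in the anterior list. In replicate 2 more opened regions met the anterior than the tailbud list in each of the 3 windows; in replicate 1 both lists met the same number, 0, 1 and 0.

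The widest members of 4 classes show single cases. An annotation of mm9 was not used here, so no gene, exon or promoter is assigned to them. Of the 192 opened regions with EpiSC H3K27ac in both replicates, CBP-P300 and tailbud acetylation in replicate 2, the widest was chr12:40467264-40469525, which is 2262 bp long and lies 12091 bp from a Cdx2 or T region. It was in 6 of the 7 lists, all but the tailbud list of replicate 1. The next were chr13:44303848-44305775 (1928 bp), chr4:154561565-154563115 (1551 bp), chr8:109750008-109751482 (1475 bp) and chr1:91830418-91831816 (1399 bp). All 5 were in the anterior list of replicate 2 as well, and the region on chromosome 4 was in all 7 lists and lay 741 bp from a Cdx2 or T region.

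Of the opened regions in the tailbud and not the anterior list of replicate 2, the widest was chr16:22662565-22663937 (1373 bp), which was in no other list. The next, chr13:44313233-44314565 (1333 bp), also had CBP-P300 and EpiSC H3K27ac in replicate 1, and it lies on the same chromosome as the second region above. The region chr9:64423517-64424685 (1169 bp) had CBP-P300, EpiSC H3K27ac in replicate 2 and the tailbud list of both replicates. The remaining ones, chr12:104564838-104565992 (1155 bp) and chr11:84336959-84338080 (1122 bp), were in the tailbud list of replicate 2 alone.

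Of the opened regions in the anterior and not the tailbud list of replicate 2, the widest were chr9:91281413-91283057 (1645 bp), chr19:38581685-38583201 (1517 bp), chr10:125439875-125441338 (1464 bp), chr1:35750989-35752349 (1361 bp) and chr4:8307942-8309256 (1315 bp). The third and the fourth also met EpiSC H3K27ac of replicate 2, and none of the 5 had CBP-P300 or met the anterior list of replicate 1. Wide opened regions without any of the 7 lists were led by chr3:97681981-97683567 (1587 bp), chr13:100945037-100946469 (1433 bp), chr19:30405868-30407098 (1231 bp), chr15:79812113-79813329 (1217 bp) and chr11:55787279-55788450 (1172 bp). Those 5 lay between 175464 and 860179 bp from the nearest Cdx2 or T region.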

How the data were processed

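All values come from lists of regions, 1 per library, which the authors deposited in mm9 with chromosome, start and end and no score. Per the submitters' processing notes, ChIP-seq used Bowtie 1.1.0, SAMtools 0.1.19 and MACS2 2.1.0, and ATAC-seq used cutadapt 1.8.1, Bowtie2 2.1.0, SAMtools 0.1.19 and MACS2 2.1.0. Settings of the peak caller are not given in the sources used here.

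A region counted as shared when it overlapped a region of the other list by at least 1 bp. Overlaps, distances and 95% Wilson intervals were computed in Python 3.11.15 with numpy 2.4.6 and scipy 1.17.1, and checked on simulated regions with known overlaps. Shares of lists between E9.5 tissues were compared by an exact two-sided permutation test over the 2 lists of each. Regions are not replicates, so no test was run over them. Separate cultures or embryos are not stated for the replicates, so the spread between them may be technical.

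The E9.5 replicate numbers pair the lists only through the antibody batch that the labels state. Named regions are the 5 widest of each of 4 classes, the 3 fullest windows of 100 kb, and regions nearest to the boundary of the set. The comparisons with closed regions and with Cdx2 or T sites, and the width classes, were added after the data were seen. The members and lists were chosen with earlier results of these data known. RNA tables, which are on another build, were not used here. No sequence or gene is given, as no mm9 genome was used.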

Additional observations from a re-analysis of the deposited data

How the results depend on the processing

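The number of opened regions lay between 10857 and 13634 under every other rule for a shared region or a Cdx2 or T site, and between 11478 and 11535 when 1 of the 4 Cdx2 and T lists was left out. EpiSC H3K27ac in both replicates met 6.67%; the share was 16.1% for either replicate, 4.71% with 50% of the region covered and 11% with a flank of 1 kb. Leaving out 1 replicate gave 8.9% to 13.8%. CBP-P300 met 2.74%, and 0.95% and 6.11% under those coverage and flank rules. The tailbud share of 38.9% was 18.8% in replicate 1, 18.6% in both replicates, 34.1% with 50% covered and 47.1% with the flank. The anterior share of 41.4% was 14.3%, 14.2%, 36.6% and 49.3% in that order.

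The tailbud minus anterior difference was 0.985 percentage points, and 0.985 with the antibody batch as replicate block, since both fits average the same lists. It reversed to -2.5 in replicate 2 alone.

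Within 186 to 376 bp, the difference from regions accessible at both times was -2.71 for EpiSC H3K27ac and -0.23 for the tailbud, and reversed to 0.056 for CBP-P300 and 1.53 for anterior tissue. Calling a region shared only when 50% of it was covered moved the tailbud difference to -27.6 and the anterior one to -25.1. The difference from regions with a Cdx2 or T site reversed to 1.29 in tailbud replicate 1 within that width range. The difference from closed regions was positive in 16 of 16 alternatives. Within 5 kb and 20 kb, 15.2% and 35.6% of opened regions had a neighbour.

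Promoter filters and RNA of nearby genes were not run, for want of an mm9 annotation. Depth limits these lists in a way that cannot be measured from positions alone.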
